A study of Mus musculus with 6 samples.

Results

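The 9 genes described here act on retinoids, the vitamin A compounds, and were followed from retinol through retinaldehyde and retinoic acid to a retinoic acid receptor. They were chosen by gene symbol as members of the pathway, with earlier results of these data known, and all 9 (Rdh10, Dhrs3, Aldh1a1, Aldh1a2, Aldh1a3, Cyp26b1, Crabp1, Crabp2 and Rarb) were present among the 17924 genes of the deposited table. RNA-sequencing (RNA-seq) was performed on dermal fibroblasts from the dorsal skin of newborn (P0) mice after 14 days in adipocyte differentiation medium, with 3 biological replicates of control (CTL) cells and 3 of cells deleted for Nelfb, a subunit of the negative elongation factor that holds RNA polymerase II near promoters. CTL mice were Nelfb fl/wt or Nelfb wt/wt and Nelfb-/- mice were Nelfb fl/fl. Both groups carried Pdgfra-Cre on a C57BL/6J background, and the labels do not give which CTL library had which genotype. Pdgfra-Cre acts in mesenchymal cells of the dermis, so that cells of other lineages in the same culture would keep the gene.

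Retinol enters cells and is oxidized in a reversible step to retinaldehyde, which is then oxidized irreversibly to retinoic acid by the retinaldehyde dehydrogenases. Retinoic acid is carried by small binding proteins, acts in the nucleus through receptors that bind DNA as pairs with a retinoid X receptor, and is broken down by CYP26 enzymes. In fat cells, retinoids are known as regulators of differentiation and of lipid storage, and several pathway genes, among them Rarb and the CYP26 genes, are themselves classical targets of retinoic acid.

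Levels are given in CPM (counts of reads per 1e+06 reads assigned to any gene of the table) and are not corrected for gene length, and the values of a group are always listed in the order of replicates 1, 2 and 3. Libraries held 17.2 M to 29.4 M assigned reads (M, 1e+06), and 3 reads, taken as the floor of detection, were worth 0.102 to 0.175 CPM. Differences are log2 fold changes of Nelfb-/- relative to CTL on the scale of log2(reads + 1) at a common depth of 22.3 M, which understates the change of genes near the floor. A gene was called upregulated or downregulated in the limma test at an adjusted p of at most 0.05 over the 16252 genes tested together with a change of at least 2-fold. With 3 libraries against 3, the smallest p of an exact permutation test for 1 gene is 0.1. The deleted gene itself, Nelfb, was measured at 17.3, 19.6 and 22.3 CPM in the CTL libraries against 5.50, 3.90 and 5.55 CPM in the Nelfb-/- libraries (log2 fold change -1.99, SE 0.22, adjusted p = 0.0050 by limma). The first principal component (59.9% of the variance) separated the groups, while the second (27.7%) set CTL replicate 3 against Nelfb-/- replicate 1, so that values without both libraries are also given. The choice of this pair came after seeing the data, and on the first component each lay nearest to the other group. Leaving both out therefore widens the separation of the groups (4383 genes called, beside 1824 with all libraries), and a call gained in that fit is a description of 4 libraries and no support for a change.

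The labels name the cells adipocytes, and all 9 adipocyte markers examined were detected in both groups, with a summed level of 16946 to 26384 CPM in CTL and 7963 to 17234 CPM in Nelfb-/- libraries. Of these markers, 4 lay lower in every Nelfb-/- library than in any CTL library, among them Pparg and Plin1, and Lep lay higher. Fabp4 made up most of the adipocyte sum in every library and was not called (adjusted p = 0.24 by limma). Markers of other cell types were also present, and their counts stand beside 22% of all genes tested that lay higher and 16.1% that lay lower in every Nelfb-/- library. All 6 skeletal muscle markers and 8 of 9 macrophage markers were higher in every Nelfb-/- library, and their sums were 6.91 to 9.21 CPM and 147 to 494 CPM in CTL beside 42.3 to 68.6 CPM and 1223 to 3638 CPM in Nelfb-/- libraries. For 5 of 6 melanocyte markers, 5 of the 6 keratinocyte markers listed, 3 of 6 endothelial markers and 2 of the 5 Schwann cell markers listed, every Nelfb-/- library also lay above CTL, while Mbp, another Schwann cell marker, was lower in every Nelfb-/- library (log2 fold change -1.23, adjusted p = 0.038 by limma). The summed levels were 48.6 to 73.7 against 51.9 to 168 CPM for melanocyte, 2.99 to 3.64 against 6.97 to 19.5 CPM for keratinocyte, 6.97 to 10.6 against 7.92 to 22.1 CPM for endothelial and 164 to 340.3 against 381 to 478 CPM for Schwann cell markers, where Pmp22, whose libraries overlapped between the groups, made up most of the sum. Mitf, whose libraries also overlapped, made up nearly all of the melanocyte sum in CTL libraries (62.8, 72.4 and 47.2 CPM). It was at 96.3, 21.6 and 26.8 CPM in Nelfb-/- libraries, so that this sum understates the rise of the other melanocyte markers. The melanocyte markers Tyr, Tyrp1 and Mlana were at or under the floor in all CTL libraries. Fibroblast markers summed to 4402 to 16923 CPM in CTL and 8414 to 33448 CPM in Nelfb-/- libraries, with 2 of 8 higher without overlap, and none of the 4 mast cell markers listed (1.16 to 4.81 and 2.27 to 10.4 CPM) were separated between the groups. The part of these cell types in the results below was not tested. In these bulk libraries, a lower share of a cell type cannot be told apart from less RNA per cell.

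Among the 9 retinoid genes, Crabp2 and Aldh1a2 were upregulated in Nelfb-/- cells, while Aldh1a1 and Cyp26b1 were downregulated. The other 5 genes (Rdh10, Dhrs3, Aldh1a3, Crabp1 and Rarb) were not called. Of all genes tested, 7.58% were called upregulated and 3.64% downregulated, 11.2% together. The libraries of the groups did not overlap at 5 of the 9 genes (higher in Nelfb-/- cells for Aldh1a2, Crabp2 and Rarb, lower for Aldh1a1 and Cyp26b1), and at 38.1% of all genes tested (22% higher and 16.1% lower in Nelfb-/- cells). The median log2 fold change of the 9 genes was 1.07 beside 0.07 for all genes tested, and the choice of the 9 genes was not independent of these data. All 9 genes had the required mean of 10 reads over the 6 libraries, but Aldh1a2 (4.81 reads in CTL, 58.4 in Nelfb-/-) and Rarb (4.93 and 20.4 reads) reached it only through the Nelfb-/- libraries, so that these counts describe the genes and are not support for a change of the pathway. The plot of the members by library shows each value.

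**Figure D1:**
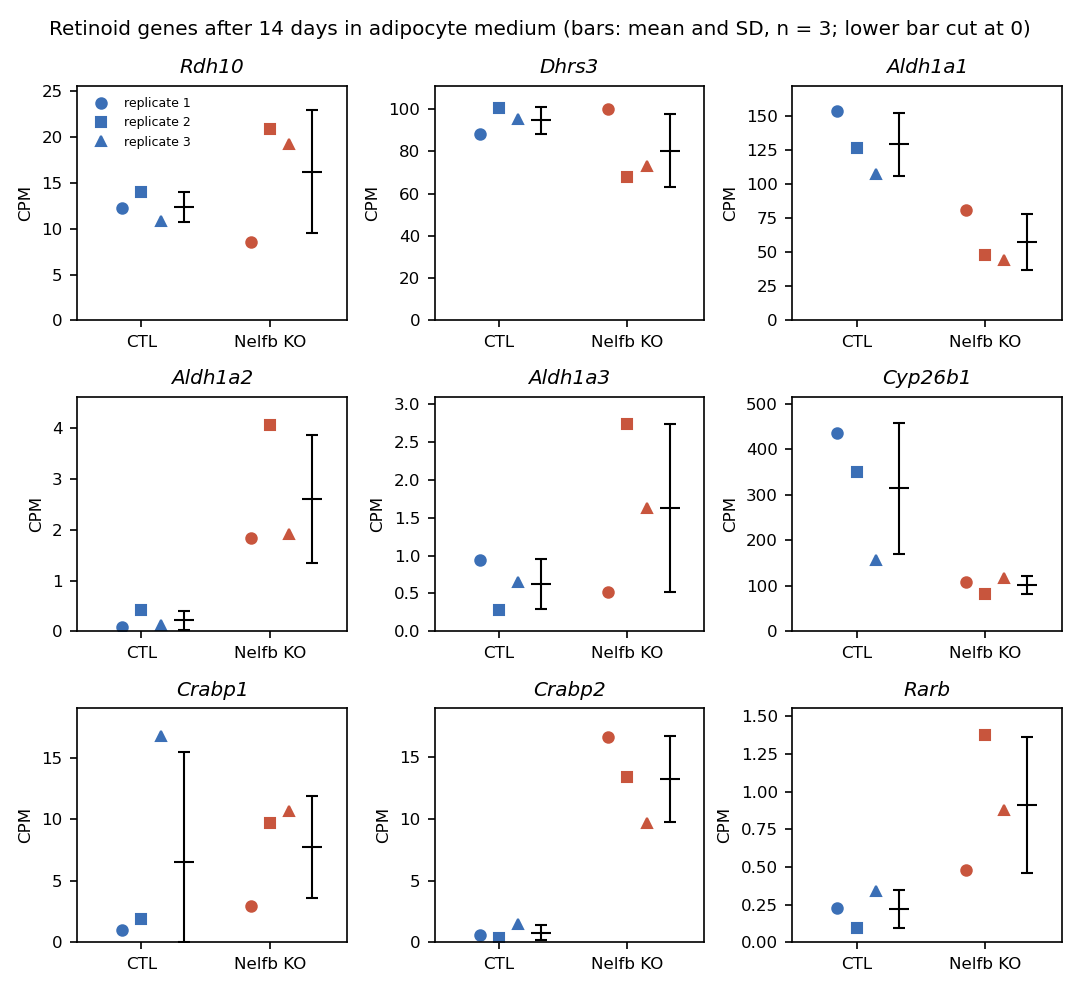
Level (CPM, linear axes from 0) of each of the 9 retinoid genes in the 3 CTL and the 3 Nelfb-/- libraries, with symbols for replicates 1, 2 and 3 and bars for the mean and SD of each group (n = 3). Aldh1a2, Crabp2 and Rarb lay higher and Aldh1a1 and Cyp26b1 lower in every Nelfb-/- library, while the CTL bars of Crabp1 and Cyp26b1 were wide because CTL replicate 3 stood apart at 16.8 CPM and 156 CPM.

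The reversible step between retinol and retinaldehyde was represented by a pair of enzymes. Rdh10 (ENSMUSG00000025921, GRCm38 chromosome 1, 16105774 to 16133734, plus strand) encodes the main retinol dehydrogenase of development, which forms retinaldehyde. It was detected at 12.2, 14.0 and 10.8 CPM in the CTL libraries and at 8.53, 20.9 and 19.3 CPM in those of Nelfb-/- cells. Replicates 2 and 3 of Nelfb-/- cells lay above all CTL libraries, but replicate 1 lay below them. The difference of 0.30 on the log2 scale (SE 0.36, 95% interval -0.56 to 1.16, adjusted p = 0.61 by limma) was therefore within the spread of the replicates. Without CTL replicate 3 and Nelfb-/- replicate 1 it was 0.61 (adjusted p = 0.0071), which remained under 2-fold.

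Dhrs3 (ENSMUSG00000066026, chromosome 4, 144892827 to 144928209, plus strand) encodes the reductase that returns retinaldehyde to retinol. CTL libraries held it at 88.2, 101 and 95.3 CPM, and Nelfb-/- libraries at 100.05, 68.0 and 72.9 CPM. Nelfb-/- replicate 1 lay within the CTL range and the other Nelfb-/- libraries lay below it. On the log2 scale, Dhrs3 differed by -0.26 (SE 0.18, 95% interval -0.68 to 0.17, adjusted p = 0.37 by limma), so that a decrease of 2-fold lay outside the interval, and without CTL replicate 3 and Nelfb-/- replicate 1 the value was -0.42 (adjusted p = 0.011), again under 2-fold. In replicate 1 of Nelfb-/- cells, Rdh10 was at its lowest and Dhrs3 at its highest level within that group.

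The 3 retinaldehyde dehydrogenases, which catalyse the irreversible step to retinoic acid, did not move in 1 direction. Aldh1a1 (ENSMUSG00000053279, chromosome 19, 20492715 to 20643465, plus strand) was the most abundant of them in both groups. It was expressed at 153, 127 and 107 CPM in the CTL libraries, but at 81.1, 47.9 and 44.1 CPM in the Nelfb-/- libraries. All Nelfb-/- libraries lay below all CTL libraries, with the highest Nelfb-/- value in replicate 1. Its log2 fold change was -1.20 (SE 0.27, adjusted p = 0.030 by limma), a level of 0.434 relative to CTL. The call was lost when CTL replicate 1, CTL replicate 2, Nelfb-/- replicate 2 or Nelfb-/- replicate 3 was left out (values of -1.48 to -1.04 and adjusted p of 0.012 to 0.12 over the 6 fits), and the value without CTL replicate 3 and Nelfb-/- replicate 1 was -1.60 (adjusted p = 1.3e-04).

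Aldh1a1 has a close copy in the mouse genome, Aldh1a7, so that the sequences of both bear on how reads could be assigned. The coding sequences of the GENCODE transcripts are 1506 bases each, of which 1380 (91.6%) are the same. Of the 50-base windows of the Aldh1a1 transcript, 151 of 2309 (6.54%) also occur in Aldh1a7. The following stretch, bases 301 to 390 counted from the first base of the start codon, is shown because it is among the parts that separate the copies, with the 16 of 90 bases that differ in capitals.
Aldh1a1: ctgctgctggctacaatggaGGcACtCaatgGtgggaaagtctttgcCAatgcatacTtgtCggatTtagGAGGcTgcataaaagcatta
Aldh1a7: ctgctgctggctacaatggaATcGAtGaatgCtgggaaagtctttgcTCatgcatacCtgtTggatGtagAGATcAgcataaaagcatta
Expression of Aldh1a7 was 277, 221 and 189 CPM in the CTL libraries compared with 106, 119.7 and 100.2 CPM in the Nelfb-/- libraries. It was likewise downregulated (log2 fold change -1.06, SE 0.18, adjusted p = 0.013 by limma), a call that was lost without CTL replicate 1, CTL replicate 2 or Nelfb-/- replicate 3 (-1.19 to -0.92 over the 6 fits without 1 library). Because some reads of the copies cannot be separated and the counting of such reads is not given in the sources used here, the split between these genes is uncertain, while both lay lower in every Nelfb-/- library.

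Aldh1a2 (ENSMUSG00000013584, chromosome 9, 71215789 to 71296243, plus strand), the retinaldehyde dehydrogenase of the embryonic mesoderm, was near the floor in CTL cells. CTL libraries held it at 0.0902, 0.420 and 0.136 CPM, a total of 15 reads over the 3 libraries. In the Nelfb-/- libraries it reached 1.85, 4.07 and 1.92 CPM, a total of 156 reads. The groups were clearly apart, with replicate 2 of Nelfb-/- cells the highest. Aldh1a2 thus had a log2 fold change of 3.47 (SE 0.60, adjusted p = 0.014 by limma). The call was lost without CTL replicate 1, Nelfb-/- replicate 2 or Nelfb-/- replicate 3 (3.10 to 3.99 and adjusted p of 0.026 to 0.066 over the 6 fits), and without CTL replicate 3 and Nelfb-/- replicate 1 the value was 3.50 (adjusted p = 0.0057). Even so, the level of Aldh1a2 per length in Nelfb-/- cells (1.15 ± 0.559 CPM per kb of exons, SD, n = 3) remained below that of Aldh1a1 (11.7 ± 4.12 CPM per kb) in the same cells.

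Aldh1a3 (ENSMUSG00000015134, chromosome 7, 66390890 to 66427517, minus strand), the form known from epithelia, was low in both groups. Its CTL values were 0.947, 0.280 and 0.646 CPM, and its Nelfb-/- values were 0.522, 2.74 and 1.63 CPM. Nelfb-/- replicate 1 lay within the CTL range and the others above it. The change of 1.19 on the log2 scale did not pass the test (SE 0.71, 95% interval -0.51 to 2.89, adjusted p = 0.30 by limma). Without CTL replicate 3 and Nelfb-/- replicate 1 it was 1.93 (adjusted p = 0.031), a value that drops the Nelfb-/- library within the CTL range and is no support for a change.

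Breakdown of retinoic acid was represented by Cyp26b1 (ENSMUSG00000063415, chromosome 6, 84571414 to 84593908, minus strand), the CYP26 enzyme known from dermal mesenchyme. It was high in the CTL libraries, at 437, 350.2 and 156 CPM, and lower in the Nelfb-/- libraries, at 108, 81.2 and 118 CPM. The groups did not overlap, but CTL replicate 3 was closer to the Nelfb-/- libraries than to the other CTL libraries. Cyp26b1 was called at a log2 fold change of -1.51 (SE 0.39, adjusted p = 0.046 by limma). Among the fits that left out 1 library, the call remained in that without CTL replicate 3 and was lost in the other 5 (-1.95 to -1.21, adjusted p of 0.0065 to 0.15). It was also lost when no abundance trend was used for the variance (adjusted p = 0.065), while the value without CTL replicate 3 and Nelfb-/- replicate 1 was -2.00 (adjusted p = 3.6e-04). Adipoq, a marker of mature adipocytes, also stood lowest in CTL replicate 3 among the CTL libraries, at 698 CPM beside 1768 and 1857 CPM in replicates 1 and 2. In the Nelfb-/- libraries, Adipoq was at 488, 802 and 630 CPM, highest in replicate 2, where Cyp26b1 was lowest. A relation of Cyp26b1 to the share of adipocytes was not tested.

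Of the cellular retinoic acid binding proteins, Crabp2 was called and Crabp1 was not, and the difference between their changes was not tested. Crabp2 (ENSMUSG00000004885, chromosome 3, 87948666 to 87953376, plus strand), which delivers retinoic acid to its receptors in the nucleus, showed the largest change of the 9 genes. The CTL libraries held 0.586, 0.327 and 1.46 CPM of Crabp2, and the Nelfb-/- libraries held 16.6, 13.4 and 9.63 CPM. The lowest Nelfb-/- library thus lay well above the highest CTL library. The log2 fold change was 4.19 (SE 0.54, adjusted p = 0.0070 by limma), or 18.3-fold, and it was called in all 6 fits without 1 library (3.73 to 4.74, adjusted p of 0.0044 to 0.040). Without CTL replicate 3 and Nelfb-/- replicate 1 it was 4.56 (adjusted p = 1.7e-04).

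Crabp1 (ENSMUSG00000032291, chromosome 9, 54764748 to 54773110, plus strand), known for holding retinoic acid in the cytoplasm and as a gene of dermal fibroblasts, varied within the groups. Values of 0.992, 1.91 and 16.8 CPM were measured for the CTL libraries and of 2.99, 9.66 and 10.6 CPM for the Nelfb-/- libraries. The highest of all 6 libraries was CTL replicate 3, whereas the other CTL libraries lay below every Nelfb-/- library. Its log2 fold change of 1.07 (SE 1.07, 95% interval -1.49 to 3.63, adjusted p = 0.53 by limma) was no larger than its error. It ranged from 0.24 to 2.26 when 1 library was left out, and without CTL replicate 3 and Nelfb-/- replicate 1 it was 2.84 (adjusted p = 7.2e-04), which follows in part from dropping the highest CTL and the lowest Nelfb-/- library and is no support for a change. The transcripts of Crabp1 and Crabp2 share no 50-base window, so that reads of that length would separate these genes.

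The comparison of the 9 differences on 1 axis is shown with the range over the fits that leave out a library.

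**Figure D2:**
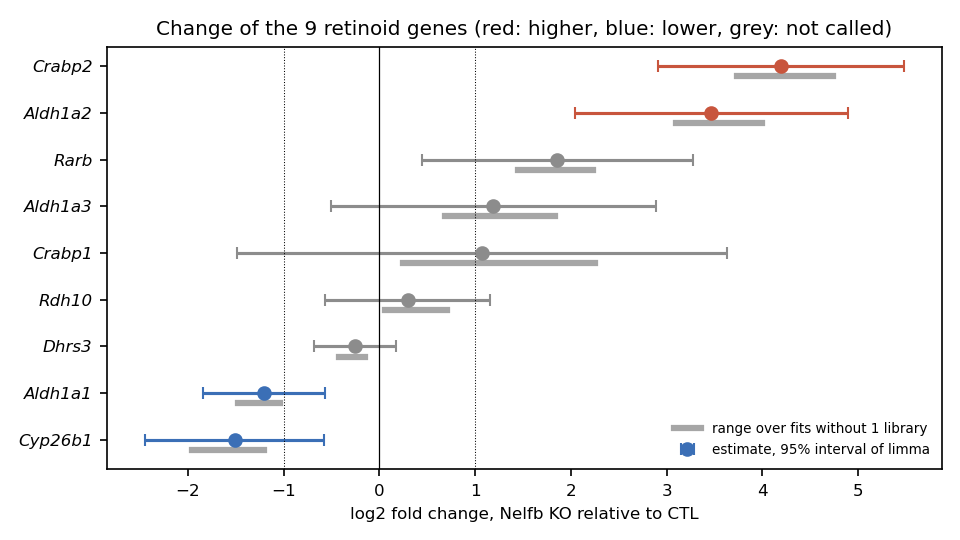
Log2 fold change of the 9 retinoid genes, Nelfb-/- relative to CTL (x axis), with the 95% interval of limma as thin lines (n = 3 and 3) and the range over the fits without 1 library as thick grey bars (5 fits for Rarb, 6 for the others); dotted lines mark a change of 2-fold. Crabp2 (4.19) and Aldh1a2 (3.47) lie highest, Aldh1a1 (-1.20) and Cyp26b1 (-1.51) lowest, and the intervals of Aldh1a3, Crabp1, Rdh10 and Dhrs3 include 0.

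Rarb (ENSMUSG00000017491, chromosome 14, 16430839 to 16819156, minus strand) encodes retinoic acid receptor beta, a receptor whose own promoter responds to retinoic acid. The response element is a direct repeat of a half-site with 5 bases between the copies. The 100 bases before a start of Rarb annotated in RefSeq (GRCm38.p6, chr14:16575477-16575576, minus strand) are printed with the half-sites of such a repeat, 53 to 37 bases before the start, in capitals. This start lies inside the gene bounds given above, and the levels of Rarb given below are for the whole gene. The window of Cyp26a1 (chr19:37697751-37697807, plus strand, 57 bases before the start), a CYP26 gene whose expression was not analysed here, is shown for comparison because it holds the same kind of repeat on the opposite strand, 32 to 16 bases before the start.
Rarb: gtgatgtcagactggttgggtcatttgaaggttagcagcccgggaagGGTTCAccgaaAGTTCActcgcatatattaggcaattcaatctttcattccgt
Cyp26a1: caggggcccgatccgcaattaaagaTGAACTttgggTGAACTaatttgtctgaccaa
The search used the half-sites AGGTCA and AGTTCA, and likewise GGGTCA together with GGTTCA, in any pair on both strands of windows from 250 bases before to 50 after each start. A repeat with a spacer of 5 bases was present in 32 of 32851 such windows (0.0974%), with a spacer of 1 base in 0.222% and with a spacer of 2 bases in 0.268%. Windows were given for 6 of the 9 retinoid genes, with no entry for Aldh1a3, Rdh10 and Crabp2. Of these 6 genes, Rarb held a repeat with a spacer of 5 and no gene held one with a spacer of 1 or 2. A match describes the letters only and is no evidence of binding in these cells.

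Rarb was near the floor in CTL cells, at 0.225, 0.0933 and 0.344 CPM. The Nelfb-/- libraries held it at 0.478, 1.38 and 0.881 CPM. Each Nelfb-/- library lay above each CTL library, with a narrow gap between CTL replicate 3 and Nelfb-/- replicate 1. Rarb did not pass the test at a log2 fold change of 1.86 with an SE of 0.59 and a 95% interval of 0.44 to 3.27 (adjusted p = 0.081 by limma). Without CTL replicate 3 and Nelfb-/- replicate 1 it was 2.57 (adjusted p = 0.0076), which drops the libraries on both sides of that gap and is no support for a change, and without Nelfb-/- replicate 2 the gene had too few reads to be tested. Of the 5265 exon bases of Rarb, 1793 are shared with exons of Top2b on the opposite strand, and Top2b had a mean of 127 CPM beside 0.566 CPM for Rarb. Since the use of strand in the counting is not given in the sources used here, the values of Rarb are uncertain.

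Per length, the 9 genes covered a wide range, and their order differed between the groups. In CTL cells, Cyp26b1 had the highest mean at 58.8 ± 26.9 CPM per kb of exons (SD, n = 3), followed by Dhrs3 at 32.3 ± 2.12, Aldh1a1 at 26.2 ± 4.69, Crabp1 at 8.19 ± 11.1, Rdh10 at 2.97 ± 0.390 and Crabp2 at 0.599 ± 0.450 CPM per kb. Aldh1a3 (0.135 ± 0.0724), Aldh1a2 (0.0951 ± 0.0789) and Rarb (0.0419 ± 0.0238 CPM per kb) were lowest. The libraries of neighbours in this order overlapped for Cyp26b1 and Dhrs3, Dhrs3 and Aldh1a1, Crabp1 and Rdh10, Aldh1a3 and Aldh1a2, and Aldh1a2 and Rarb. In Nelfb-/- cells, Dhrs3 came first at 27.5 ± 5.89 CPM per kb, ahead of Cyp26b1 at 19.1 ± 3.55 and Aldh1a1 at 11.7 ± 4.12 CPM per kb. Crabp2 (7.28 to 12.6 CPM per kb) stood beside Crabp1 (9.68 ± 5.20 CPM per kb) there, and Rdh10 (3.90 ± 1.62), Aldh1a2 (1.15 ± 0.559), Aldh1a3 (0.353 ± 0.240) and Rarb (0.173 ± 0.0855 CPM per kb) followed. Overlapping neighbours in Nelfb-/- cells were Cyp26b1 and Aldh1a1, Aldh1a1 and Crabp2, Crabp2 and Crabp1, Crabp1 and Rdh10, and Aldh1a3 and Rarb.

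**Figure D3:**
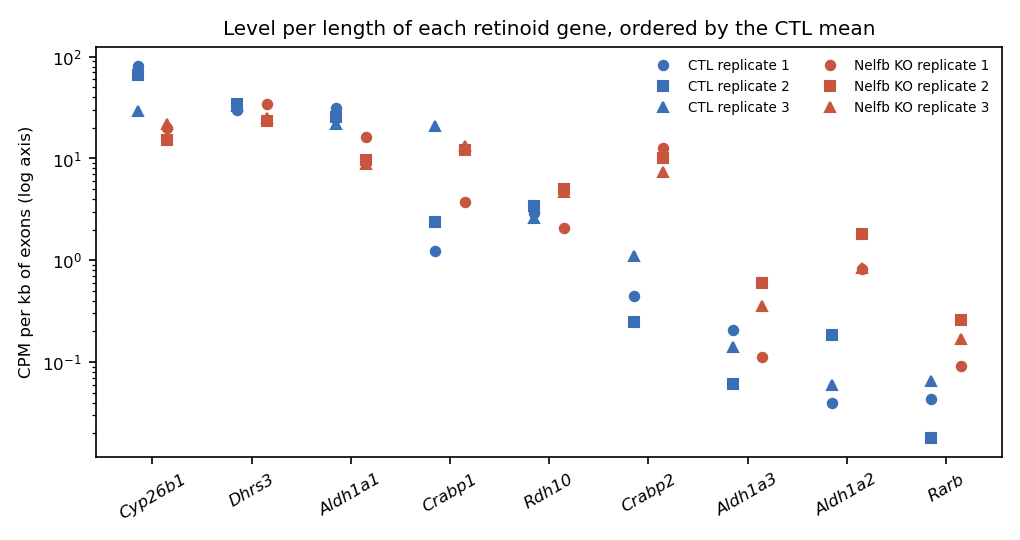
Level per length (CPM per kb of exons, log axis) of each retinoid gene in each library, ordered by the CTL mean, with CTL in blue, Nelfb-/- in red and symbols for replicates 1, 2 and 3. Crabp2 lies between 0.247 and 1.11 CPM per kb in CTL and between 7.28 and 12.6 CPM per kb in Nelfb-/- libraries, level with Crabp1 there, and Rarb has the lowest mean in both groups, with libraries that overlap those of Aldh1a2 in CTL and of Aldh1a3 in Nelfb-/- cells.

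For each retinoid gene, the tested genes with the most similar profile over the 6 libraries were found by the root mean square difference of log2 values, each centred on its mean. Crabp2 was closest to Csrp3, which encodes a LIM protein of striated muscle (0.26), and to Grpr (0.27). Csrp3 had 0, 0 and 0.0680 CPM in the CTL libraries but 1.19, 0.990 and 0.816 CPM in the Nelfb-/- libraries, so that like Crabp2 it was highest in Nelfb-/- replicate 1. The summed muscle markers were also highest there (68.6 CPM beside 42.3 and 43.4 CPM), as were the macrophage (3638 beside 1223 and 2040 CPM), melanocyte, endothelial, Schwann cell and mast cell sums. The fibroblast (8414 beside 30772 and 33448 CPM), keratinocyte (6.97 beside 16.9 and 19.5 CPM) and adipocyte sums (7963 beside 17234 and 13648 CPM) were lowest in that library. Their part in the change of Crabp2 was not tested. Crabp1 was closest to Ccnb2, a cyclin of mitosis (0.24), which had 2.12, 3.31 and 23.1 CPM in the CTL libraries and 3.84, 15.7 and 15.01 CPM in the Nelfb-/- libraries, and next to Sphkap (0.25). Aldh1a1 was closest to Parp6 and Sema4g (0.11 each), Aldh1a2 to Tmem59l (0.40) and Nebl (0.42), and Aldh1a3 to A630072M18Rik (0.18) and Igsf21 (0.20). Rdh10 was closest to Pcdhb16 (0.11) and Itga1 (0.12), Dhrs3 to Ddx19b (0.023) and 4933434E20Rik (0.030), Cyp26b1 to Gm28439 (0.18) and Gm50431 (0.20), and Rarb to Tinag (0.13) and B230217C12Rik (0.16).

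The other genes of the pathway were examined as fixed lists. Of their 64 genes, 45 were listed in the table and 44 were tested, of which 2 were called upregulated and 7 downregulated, beside 7.58% and 3.64% of all genes tested. These lists were chosen with earlier results of these data known. Their median log2 fold change was -0.25, beside 0.07 for all genes tested, with 17 genes higher and 27 lower in Nelfb-/- cells. The plot of the pathway lists gives each tested gene.

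In the list of 13 transport and storage genes, 6 were tested and 1 was called, where 11.2% of all genes tested were called, and the median log2 fold change was -0.32. Fabp5, a fatty acid binding protein that can carry retinoic acid to another nuclear receptor, was downregulated from 837, 701 and 680.4 CPM to 261, 240.1 and 214 CPM (log2 fold change -1.63, SE 0.17, adjusted p = 0.0042 by limma). The groups were far apart, and the call remained in all 6 fits without 1 library. Rbp4, the retinol carrier of the blood and an adipokine, was at 105, 140.2 and 312 CPM in the CTL libraries against 6.97, 63.1 and 27.4 CPM in the Nelfb-/- libraries. All Nelfb-/- values were lower, but the spread was wide and Rbp4 did not pass (log2 fold change -2.85, SE 0.82, adjusted p = 0.061 by limma). Leaving out 1 library at a time gave -3.58 to -2.00 with an adjusted p of 0.047 to 0.15 and a call in 1 of 6 fits. Rbp4 was called in 4 of 17 alternatives, among them those without Nelfb-/- replicate 2 (-3.58, adjusted p = 0.047), without CTL replicate 3 and Nelfb-/- replicate 1 (-1.54, adjusted p = 0.012) and with library weights (-2.10, adjusted p = 3.1e-04).

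Of the 20 other oxidoreductases of retinoids, 13 were tested and their median log2 fold change was -0.43. Adh1, an alcohol dehydrogenase that also oxidizes retinol, was the most strongly downregulated. It fell from 522, 461 and 310.3 CPM to 86.3, 66.2 and 66.3 CPM (log2 fold change -2.54, SE 0.23, adjusted p = 0.0039 by limma). The groups were widely separated, and Adh1 was called in all 6 fits without 1 library. Rdh12, a retinal reductase known from photoreceptors, rose from 13.8, 11.8 and 7.55 CPM to 26.8, 19.1 and 20.2 CPM, with a log2 fold change of 1.02 (SE 0.27, adjusted p = 0.0495 by limma). This lay at the edge of both limits, and the call was lost in each of the 6 fits without 1 library (0.77 to 1.20, adjusted p of 0.049 to 0.14). Together with Aldh1a7 above, these were the genes of this list that were called, and the other CYP26 genes, Cyp26a1 and Cyp26c1, were not analysed here.

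None of the 5 other receptors was called. Rara, receptor alpha, was at 20.6, 18.7 and 56.7 CPM in the CTL libraries and at 20.3, 41.1 and 39.9 CPM in the Nelfb-/- libraries, with a log2 fold change of 0.20 (95% interval -0.97 to 1.38, adjusted p = 0.81 by limma). CTL replicate 3 was the highest library, and the direction turned in the fits without CTL replicate 1 (-0.017) or CTL replicate 2 (-0.087), while the value without CTL replicate 3 and Nelfb-/- replicate 1 (1.04, adjusted p = 3.4e-04) drops the highest CTL and the lowest Nelfb-/- library and is no support for a change. Rarg, receptor gamma, lay between 29.9 and 40.3 CPM in all libraries, and its interval of -0.31 to 0.44 excluded a change of 2-fold (0.06, adjusted p = 0.82 by limma). Its direction turned with both other scalings (-0.0055 with median-of-ratios size factors and -0.031 with quantile normalization), so that no direction is given. Rxra, the partner receptor, was at 331, 334 and 217 CPM in the CTL libraries and at 321, 163 and 174 CPM in the Nelfb-/- libraries, with a log2 fold change of -0.47 (95% interval -1.22 to 0.29, adjusted p = 0.36 by limma). Of the 8 coregulators of these receptors, none passed both limits (median log2 fold change -0.18).

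Among 16 genes known to respond to retinoic acid, 12 were tested, 1 was called upregulated and 4 were called downregulated (7.58% and 3.64% of all genes tested), and the median log2 fold change was 0.05. Tgm2, the tissue transglutaminase, fell by 1.55 on the log2 scale (SE 0.26, adjusted p = 0.014 by limma), from 482, 597 and 877 CPM to 177, 241 and 235 CPM. Rarres1 (log2 fold change -1.75, adjusted p = 0.031) and Rarres2 (log2 fold change -1.60, adjusted p = 0.019), which encodes the adipokine chemerin, were also downregulated. Pck1, a gluconeogenic enzyme that fat cells use to make glycerol, was at 678, 616 and 55.9 CPM in the CTL libraries and at 2.94, 4.37 and 2.53 CPM in the Nelfb-/- libraries (log2 fold change -6.47, SE 0.94, adjusted p = 0.0096 by limma). Its CTL libraries differed widely from each other but all lay above the Nelfb-/- libraries. Dlk1, a preadipocyte gene, rose from 53.9, 48.0 and 232 CPM to 661, 1115 and 898 CPM (log2 fold change 3.37, SE 0.61, adjusted p = 0.017 by limma). Leaving out 1 library at a time ended the call of Rarres1 in all fits but that without Nelfb-/- replicate 1 (-2.03 to -1.42). It ended that of Dlk1 without CTL replicate 1 or 2 or Nelfb-/- replicate 2 or 3 (2.96 to 4.10), of Rarres2 without CTL replicate 2 or Nelfb-/- replicate 2 or 3 (-1.79 to -1.30), of Tgm2 without CTL replicate 2 or Nelfb-/- replicate 3 (-1.75 to -1.32) and of Pck1 without Nelfb-/- replicate 3 (-7.64 to -5.84). Several of these genes also respond to other signals of fat cells, and the summed adipocyte markers above were lower than in any CTL library in 2 of the 3 Nelfb-/- libraries. The part of retinoic acid in these changes was not tested.

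Without CTL replicate 3 and Nelfb-/- replicate 1, Fabp5 (-1.76), Adh1 (-2.89), Aldh1a7 (-1.18), Tgm2 (-1.17), Rarres1 (-1.41), Rarres2 (-1.40) and Pck1 (-7.58) were called downregulated and Dlk1 (4.30) upregulated on the log2 scale by limma. Rdh12 was then under 2-fold (0.62, adjusted p = 0.0074 by limma). Rxra came just short of 2-fold in that fit (-0.98, adjusted p = 2.2e-04 by limma). Because leaving out this pair widens the separation of the groups, a call kept in that fit is no check of its stability.

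**Figure D4:**
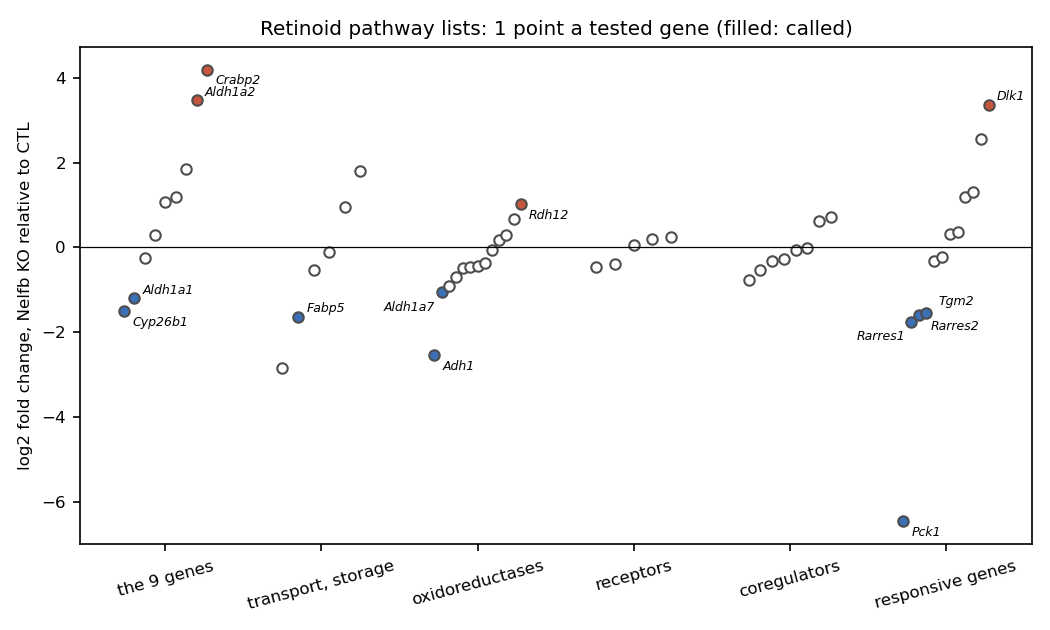
Log2 fold change of each tested gene, Nelfb-/- relative to CTL (y axis), for the 9 retinoid genes and 5 lists of other pathway genes (x axis), with 1 point per gene. Filled points are genes called upregulated (red) or downregulated (blue) by limma and named. Called genes lie on both sides of 0 in the 9 genes, the oxidoreductases and the responsive genes, and no receptor or coregulator was called.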

How the data were processed

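The authors deposited 1 table of genes with 6 columns of values for the RNA-seq of CTL and Nelfb-/- cells. The authors' values are CPM plus an offset of 0.0001, because every column adds up to 1e+06 without the offset. The submitters' processing notes name STAR 2.7, Partek 9.0.20.0202 and mm10, whereas the paper's methods name DESeq2 for the alignment. These methods give a minimum of 10 reads per gene, and a limit of 0.05 on the false discovery rate and of 2-fold, for the authors' own comparison. The counter, the annotation release and the use of strand are not given in the sources used here. CUT&RUN, RT-qPCR and staining were not analysed here.

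Depth was read from the step between the lowest values of each library, the CPM worth of 1 read. Of the values worth at most 20 reads, 69.5% to 72.1% came within 0.02 reads of a whole number, so that no count test was run. CPM values were multiplied by the common depth of 22.3 M reads, and 16252 genes whose mean reached 10 reads (0.448 CPM) were tested with limma 3.58.1 in R 4.3.3 on log2(reads + 1) with an abundance trend, comparing CTL (n = 3) with Nelfb-/- (n = 3) without a block. P-values over the whole table were adjusted after Benjamini and Hochberg. The unit was assumed to be normalized counts when the test was chosen, and the limits were set in reads once the unit was known. The p-values measure only the spread between these 6 cultures. The procedure was checked on simulated data with known changes, which were far larger than 2-fold and had independent errors. That check does not cover changes near 2-fold or spread shared by many genes within a group.

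Genes were matched by name to GENCODE vM21 (17551 of 17924 genes, 98.9% with the same position), which gave Ensembl IDs, exon lengths and transcripts. Promoter windows came from RefSeq (GRCm38.p6). Genes named in the text are the 9 genes, Nelfb, every called gene of the wider lists, Rara, Rarg, Rxra, Rbp4, Fabp5 and Aldh1a7 (with Stra6, not analysed here) whatever their values, and for each of the 9 genes the 2 tested genes with the smallest root mean square difference of profiles. Top2b, Cyp26a1, Cyp26c1, Adipoq, Csrp3 and Ccnb2 values and the ratios were added after the values were seen, as were the markers named. The 9 genes and all lists were chosen with earlier results of these data known, and they are not independent of these data. Some genes that the rule would name are not reported here. Alternatives comprised 15 chosen with the design and 2 chosen after the data were seen.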

Additional observations from a re-analysis of the deposited data

How the results depend on the processing

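Of the 17 alternatives, Crabp2 was called upregulated in 17, Aldh1a2 in 14, and Aldh1a1 in 13 and Cyp26b1 in 11 downregulated, and none of the 9 genes changed direction in the 17 alternatives (16 for Rarb). These counts include the main fit without the limit on the fold, which keeps every call by construction. They also include the fit with library weights and that without CTL replicate 3 and Nelfb-/- replicate 1, both described below. In the 6 fits without 1 library, Crabp2 was called in 6, Aldh1a2 in 3, Aldh1a1 in 2 and Cyp26b1 in 1. With 1 library left out at a time, 426 to 2479 genes were called, 1 to 2 of the 9 genes were upregulated and 0 to 2 downregulated, and 0 to 2 genes of the wider lists were upregulated and 2 to 7 downregulated. The log2 fold change then lay at -1.48 to -1.04 for Aldh1a1, 3.10 to 3.99 for Aldh1a2, 0.69 to 1.83 for Aldh1a3, -1.95 to -1.21 for Cyp26b1, 0.24 to 2.26 for Crabp1 and, without a value for the fit without Nelfb-/- replicate 2, 1.45 to 2.23 for Rarb. Of the genes not called, Rdh10 ranged over 0.063 to 0.71, Dhrs3 over -0.42 to -0.15, Rxra over -0.78 to -0.29, Rara over -0.087 to 0.71 and Rarg over -0.032 to 0.15. The direction turned without CTL replicate 1 for Rara (-0.017) and Rarg (-0.032), without CTL replicate 2 for Rara (-0.087) and without Nelfb-/- replicate 3 for Rarg (-0.025). With no abundance trend, 1 of the 9 genes was downregulated, Cyp26b1 had a log2 fold change of -1.51 but was not called, and 1 gene of the wider lists was upregulated. Median-of-ratios size factors and quantile normalization each left 1 upregulated gene in the wider lists and turned Rarg (-0.0055 and -0.031). Quantile normalization moved the median of all genes to -0.068 from 0.068 and the calls to 1014 higher and 834 lower, beside 1232 and 592.

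Library weights gave 4513 called genes, with 5 of the 9 genes and 5 genes of the wider lists upregulated, among them Aldh1a3 (1.23), Crabp1 (2.95) and Rarb (2.03). These weights did not converge fully and rest on Nelfb-/- replicate 3 (weight 38.8, beside 0.132 for CTL replicate 3 and 0.134 for Nelfb-/- replicate 1). Leaving out CTL replicate 3 and Nelfb-/- replicate 1, an alternative chosen after seeing the data that drops the library of each group nearest to the other, gave 4383 called genes, again with 5 of the 9 and 5 of the wider lists upregulated, and values of 1.93 for Aldh1a3, 2.84 for Crabp1, 2.57 for Rarb, -1.60 for Aldh1a1, -2.00 for Cyp26b1, 1.04 for Rara and 0.20 for Rarg. The cause of these differences was not tested. With the replicate number as a block, 2175 genes were called, 2 of the 9 genes were upregulated and 2 downregulated, and the wider lists had 2 upregulated and 8 downregulated genes, Rbp4 being the gene gained (-2.85, adjusted p = 0.019 by limma). Deviations of same-numbered libraries correlated at 0.515, -0.395 and 0.518, and not every sample correlated best with its own. Because the deviations were centred within each small group, these correlations depend on each other and cannot decide whether libraries were paired. The labels give only a shared number. The depth of 17.2 M to 29.4 M reads limits Aldh1a2 and Rarb most, which had 2 to 10 reads in each CTL library.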

Other observations

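Of 4 ratios of CPM between genes of the pathway, chosen after the values were seen, 1 was separated between the groups. Fabp5 and Crabp2 encode alternative carriers of retinoic acid, and their ratio was 1428, 2145 and 465 in CTL replicates 1, 2 and 3 and 15.7, 17.9 and 22.2 in Nelfb-/- replicates 1, 2 and 3. Since Fabp5 was lower and Crabp2 higher in every Nelfb-/- library, this ratio had to separate the groups and is no further result. Dhrs3 to Rdh10, the reductase and the oxidase of the retinaldehyde step, had a ratio of 7.21, 7.16 and 8.81 in CTL and of 11.7, 3.26 and 3.78 in Nelfb-/- libraries, so that replicate 1 lay above and replicates 2 and 3 below CTL. Cyp26b1 to Aldh1a1 had a ratio of 2.85, 2.76 and 1.46 in CTL and of 1.33, 1.70 and 2.68 in Nelfb-/- libraries, with overlap between the groups. The ratio of Aldh1a1 to its close copy Aldh1a7 was nearly the same in the CTL libraries (0.554, 0.573 and 0.567) and spread in both directions in Nelfb-/- libraries (0.766, 0.400 and 0.440).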
